A study of Arabidopsis thaliana with 16 samples.

Results

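Leaf transcripts of Arabidopsis thaliana were compared between 2 libraries whose count files are named pho14 and 2 libraries whose count files are named compl. These are 4 of the 16 RNA-seq libraries of the study and 4 of its 8 leaf libraries, chosen by file name and tissue, and all genes counted in them were considered. The study asks what the EXS domain, the C-terminal part of the phosphate exporter PHO1, can do in the pho1-4 mutant. Its plants were 25 days old, untreated, and raised in pots of Oil-Dri pellets with Hoagland solution. Its 4 genotypes were the pho1-4 knockout (KO), pho1-4 complemented with the PHO1 gene (Compl), and pho1-4 expressing EXS fused to GFP in the lines EXS32 and EXS34, so every plant carried the pho1-4 mutation. The sources used here do not give the promoters of the transgenes, the number of plants behind a library, or whether paired libraries are separate plants, so a p-value covers only the spread between these libraries.

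In leaves the sample labels and the file names give different genotypes. The files named pho14 are labelled EXS34, and the files named compl are labelled KO. By file name the comparison is therefore the pho1-4 mutant against the complemented line, while by label it is the EXS34 line against the mutant. The libraries fall into the same pairs either way, so every value below holds under both readings, and only the genotype names attached to it change. The groups are called the pho14 and compl libraries after their files, and differences are pho14 minus compl. The files named EXS32 are labelled Compl and those named EXS34 are labelled EXS32; in roots labels and file names agree.

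The leaf groups were matched to the root groups, whose genotype names are not in dispute. The 89 genes used differed between the 4 root groups, with a range of group means of at least 2 on the log2 scale, and passed the low-count filter in leaves. Over these genes, each centred over the 4 groups of its organ, the compl libraries correlated with Compl roots at Pearson's r = 0.70 and with KO roots at -0.51. The pho14 libraries correlated with KO roots at 0.52 and with EXS34 roots at -0.08. Each of the 4 leaf groups correlated most with the root group of its file name. These are correlations across genes and carry no test.

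**Figure D1:**
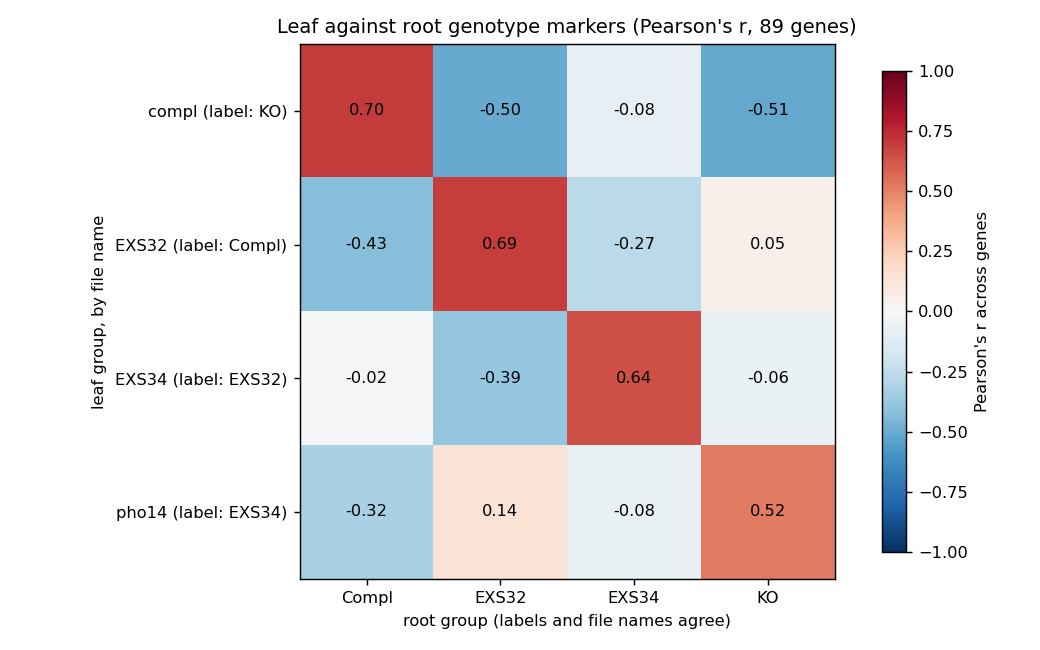
Pearson's r across the 89 root genotype markers between each leaf group (rows, by file name, with the label in parentheses) and each root group (columns); red is positive and blue negative. The 4 values on the diagonal from compl with Compl to pho14 with KO, 0.70, 0.69, 0.64 and 0.52, are the highest of their rows.

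PHO1 transcript does not separate the groups. It stood at 61.9 and 45.9 CPM (counts scaled to a common library size, the unit of every level below) in the pho14 libraries and at 60.6 and 63.4 in the compl libraries, and the ranges overlap. The log2 fold change was -0.20 ± 0.21 (SE, n = 2 against 2), with an adjusted p of 0.613 in edgeR's quasi-likelihood test. The files named EXS32 and EXS34 averaged 93.1 and 79.8 CPM. Reads from a mutant transcript, a PHO1 transgene and the EXS part of the gene all fall on the same locus, so the level does not check a genotype here.

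The leaf libraries held 9465995 to 15530134 reads on genes, and the 4 compared 9912387 to 15530134. Of 10 root-enriched markers 2 passed the low-count filter, with summed levels of all 10 at 1.48 to 5.89 CPM in the pho14 and 3.81 to 5.32 in the compl libraries. The 7 floral identity genes, of which 1 passed the filter, summed to 2.77 to 5.18 and 6.25 to 6.62, and up to 28.6 in the other leaf libraries. None of these few tested genes was called, beside 6.41% of all tested genes, and so few cannot show whether tissue was carried over. The 41 photosynthesis genes summed to 120094 to 120379 CPM in the pho14 and 126149 to 127281 in the compl libraries, so the labelled tissue shows its defining genes. The part of root or floral tissue in the results was not tested.

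Plants sense phosphate shortage through inositol pyrophosphates, which bind SPX proteins. When these ligands fall, SPX proteins release the transcription factor PHR1, which then activates phosphate starvation genes. Those genes take up and recycle phosphate, replace phospholipids by galactolipids and sulfolipids, and include the noncoding RNAs IPS1 and AT4, which sequester the microRNA miR399. PHO1 loads phosphate into the root xylem, and pho1 mutants are known for phosphate-poor shoots.

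Of 18548 genes tested in leaves, 1189 (6.41%) were called at an adjusted p under 0.05, 606 (3.27%) higher and 583 (3.14%) lower in the pho14 libraries. The larger changes went mostly one way: 263 genes were higher and 83 lower by at least 2-fold. The median log2 fold change over all tested genes was 0.02. Phosphate starvation genes led the increases, with 5 of a list of 21 core genes among the 20 largest increases, 12 among the 50 largest and 17 among the 100 largest. Without 1 of the 2 compl libraries the calls fell to 144 (without replicate 1) or 143 (without replicate 2), and with only the 4 libraries in the fit to 371.

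**Figure D2:**
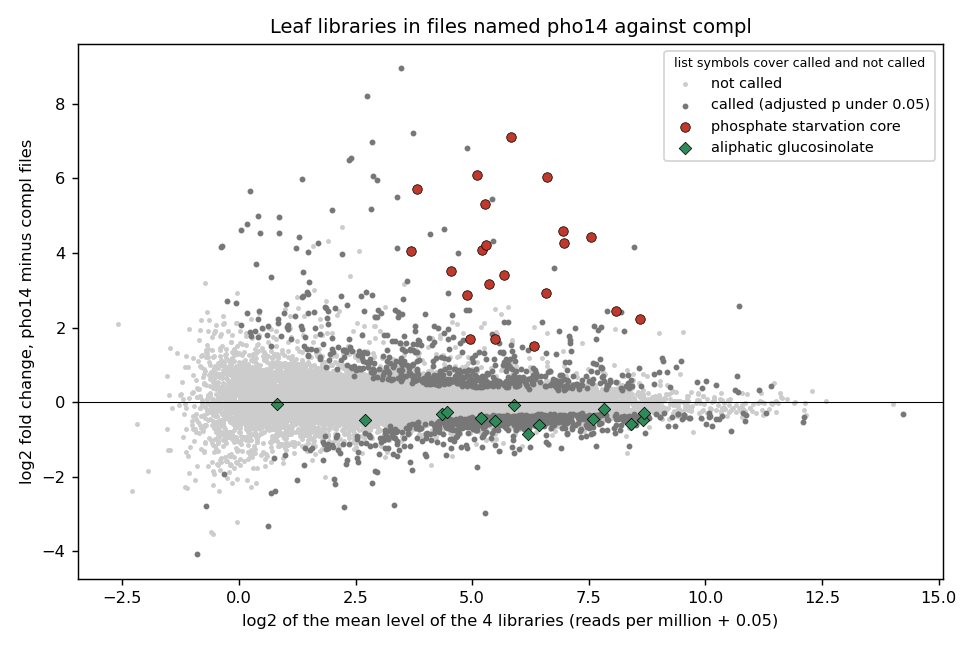
Log2 fold change of pho14 against compl libraries for each tested gene (vertical) over the log2 mean level of the 4 libraries in CPM (horizontal). The 21 phosphate starvation core genes (red circles) lie between 1.51 and 7.10, and the 14 aliphatic glucosinolate genes (green diamonds) all lie below 0.

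The core list gathers genes known to be induced by phosphate shortage, and each of them also stands in another phosphate list. The calls of those lists, given below, are therefore not separate from the calls of the core list. Of its 21 members 20 were called higher and none lower, against 3.27% of all tested genes called higher. The median log2 fold change was 4.05. In whole leaves, more RNA per cell and more cells that express a gene cannot be told apart. Both pho14 libraries were above both compl libraries for all 21, as for 55.6% of tested genes in either direction. The list's summed level was 2434 to 4039 CPM in the pho14 and 395 to 409 in the compl libraries. The member that was not called was RNS1, a secreted ribonuclease, at 64.3 and 21.2 against 6.23 and 1.15 CPM (adjusted p = 0.0805, edgeR). Leaving out compl replicate 1 or 2 left 8 or 9 of the 21 called.

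The 2 pho14 libraries were not equal in this list. Replicate 1 was above replicate 2 for 21 of 21 core genes, with a median ratio of 1.78, while over all tested genes replicate 1 was the higher in 50.96%. The salicylate and immunity list moved with it: replicate 1 exceeded replicate 2 for 22 of 22 genes, with a median ratio of 2.38. So did 29 of 32 jasmonate genes (1.44) and 19 of 21 sulfate genes (1.46), among other lists. Other lists went the other way, with 8 of 20 anthocyanin, 7 of 21 iron and 0 of 7 zinc genes higher in replicate 1. No salicylate gene was called in either direction between the groups, beside 6.41% of all tested genes. The part of that difference between the libraries in the results was not tested.

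**Figure D3:**
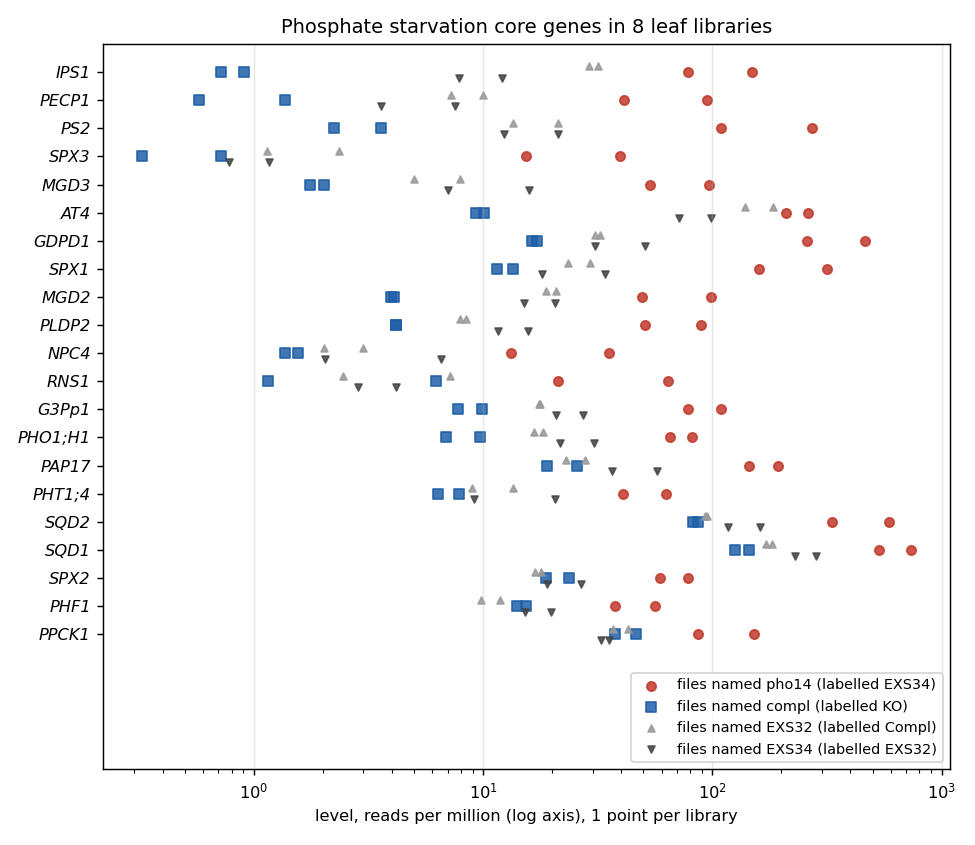
Level in CPM (logarithmic axis) of the 21 core genes in each of the 8 leaf libraries, 1 point per library and 4 groups of 2. Both pho14 libraries (red circles) lie to the right of every other library for all 21 genes, and the compl libraries (blue squares) are mostly the lowest.

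The other leaf libraries lay between. For all 21 core genes both libraries named EXS32 and both named EXS34 were below both pho14 libraries. Against the compl libraries their median log2 ratio over the core genes was 0.98 for the files named EXS32 and 1.29 for those named EXS34. AT4 came nearest to the pho14 level, at 139 and 184 CPM in the files named EXS32. These groups were not tested against the others here.

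Promoters of 4 core genes are shown because they hold the letters that PHR1 is known to bind, the P1BS element GNATATNC, which reads the same on both strands. Each runs over the 300 bases before the annotated start on the gene's strand in RefSeq's TAIR10.1, with the element in capitals. SPX3 (chr2:18606110-18606409, plus strand) has it 213 and 90 bases before the start, GDPD1 (chr3:350011-350310, minus strand) 127 and 63 bases before, AT4 (chr5:894282-894581, plus strand) 26 bases before and PS2 (chr1:27466349-27466648, minus strand) 217 bases before.
SPX3: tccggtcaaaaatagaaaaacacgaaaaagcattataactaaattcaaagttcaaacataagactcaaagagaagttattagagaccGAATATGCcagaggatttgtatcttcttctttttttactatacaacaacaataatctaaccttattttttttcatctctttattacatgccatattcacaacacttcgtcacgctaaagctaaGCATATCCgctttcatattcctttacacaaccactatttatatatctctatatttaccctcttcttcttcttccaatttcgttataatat
GDPD1: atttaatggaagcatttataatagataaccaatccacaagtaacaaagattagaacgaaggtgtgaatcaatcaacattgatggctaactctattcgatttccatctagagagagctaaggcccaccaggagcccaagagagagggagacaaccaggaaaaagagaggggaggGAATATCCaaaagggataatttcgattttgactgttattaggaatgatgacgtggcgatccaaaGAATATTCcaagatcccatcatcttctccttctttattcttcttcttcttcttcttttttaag
AT4: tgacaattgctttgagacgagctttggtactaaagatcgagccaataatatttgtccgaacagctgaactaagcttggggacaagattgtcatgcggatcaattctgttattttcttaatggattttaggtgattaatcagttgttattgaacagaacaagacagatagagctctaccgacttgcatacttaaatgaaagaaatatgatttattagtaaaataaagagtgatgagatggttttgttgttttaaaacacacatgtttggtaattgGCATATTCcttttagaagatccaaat
PS2: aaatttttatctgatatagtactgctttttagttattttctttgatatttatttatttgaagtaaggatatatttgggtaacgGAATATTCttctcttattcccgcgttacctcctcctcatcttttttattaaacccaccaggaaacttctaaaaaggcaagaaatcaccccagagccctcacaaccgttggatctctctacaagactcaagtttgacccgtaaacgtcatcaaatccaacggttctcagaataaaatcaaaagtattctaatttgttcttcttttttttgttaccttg

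The element was found in the same window of 6.65% of the tested genes with an annotated start, 1231 of 18498. Its share was 16.67% among the genes called higher, 23.19% among those at least 2-fold higher and 36.84% (42 of 114) among those at least 4-fold higher. Among genes called lower it was 6.37%. Of the 21 core genes 8 held it, which is 38.1%. A match describes the letters and is no evidence of binding.

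Among the signalling genes, SPX3 and SPX1 had the largest log2 fold changes. SPX1, an inhibitor of PHR1, stood at 317 and 159 CPM in the pho14 libraries against 11.5 and 13.4 in the compl libraries. Its log2 fold change was 4.26 ± 0.47 (adjusted p = 0.0113, edgeR). SPX3 stood at 39.5 and 15.4 against 0.325 and 0.718 (5.72 ± 0.66, adjusted p = 0.00824). SPX2 rose less, from 18.8 and 24 to 78.4 and 59.2 (1.71 ± 0.20, adjusted p = 0.00355). SPX4, which acts at the protein level on PHR factors, was at 3.66 and 5.04 against 5.13 and 6.89 and was not called (-0.47 ± 0.24, adjusted p = 0.276).

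The transcript of PHR1 itself was 51.2 and 49.8 against 47.6 and 46.5 CPM, a log2 difference of 0.10 ± 0.09 (adjusted p = 0.551, edgeR). PHO2, the ubiquitin-conjugating enzyme that miR399 silences, was at 166 and 113 against 149 and 152 (adjusted p = 0.747). Of 20 tested signalling genes 5 were called higher and none lower, beside 3.27% of all tested genes called higher. The median log2 fold change of the list was 0.08. The remaining calls were AT5G15070, annotated as a phosphoglycerate mutase-like protein, at 32.8 and 20 against 4.41 and 5.96 (2.36 ± 0.28), and AT1G25550, a myb-like transcription factor, at 151 and 156 against 112 and 119 (0.41 ± 0.08). The list had 1 or 2 calls without compl replicate 1 or 2.

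Of 9 listed noncoding RNAs of the pathway 2 passed the low-count filter, IPS1 and AT4, and both are core genes. Both were called higher, beside 3.27% of all tested genes. A member low in the compl libraries is tested only where other groups are high, so this share is no support. IPS1 (chr3:3050989-3051530) was low in the compl libraries, at 0.909 and 0.718 CPM, and reached 148 and 78.4 in the pho14 libraries. Its log2 fold change of 7.10 ± 0.49 (adjusted p = 0.0024, edgeR) was the largest of the core list. AT4 stood at 260 and 210 against 9.35 and 10.1 (4.60 ± 0.23, adjusted p = 0.000449). Both remained called without any 1 library.

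The miR399 and miR827 precursors were below the low-count filter. In other settings 1 more of the list was called higher, with no filter (3 of 7 tested) and without pho14 replicate 2 (3 of 3). The mRNA libraries do not capture the mature microRNAs. MIR399D had 23 and 5 reads in the pho14 libraries and none in the compl libraries, MIR399B 5 and 2 against none, and MIR399C 4 and 5 against none. MIR399E and MIR399F had no read in any of the 4. MIR827A had 2 and 1 reads against 1 and 2. The limit that a count of 0 allows is 3 reads over both compl libraries, or 0.102 CPM, for counting error only.

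In the PHO1 family, PHO1;H1 was the gene that changed. This exporter homologue, itself a PHR1 target, stood at 81.8 and 65.5 CPM in the pho14 libraries against 6.88 and 9.69 in the compl libraries. The log2 fold change was 3.16 ± 0.22 (adjusted p = 0.000672, edgeR), and it was called in each of the 12 other settings tried. The other 8 tested family members were not called, beside 6.41% of all tested genes that were. Among them SHB1 was at 0.876 and 1.09 against 3.51 and 2.01 (-1.50 ± 0.38, adjusted p = 0.051), and PHO1;H3 at 8.36 and 8.31 against 4.67 and 6.18 (0.62 ± 0.20, adjusted p = 0.0986).

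Of 17 phosphate transporters tested, 4 were called higher, 2 lower and 11 not called. Over all tested genes 3.27% were called higher and 3.14% lower. The median log2 fold change of the list was -0.10. The higher ones were 3 uptake carriers of the plasma membrane and their trafficking factor. PHT1;4 stood at 62.9 and 40.9 CPM against 7.85 and 6.32 (2.87 ± 0.44, adjusted p = 0.0235, edgeR). PHF1, which lets PHT1 proteins leave the endoplasmic reticulum, stood at 56.1 and 37.7 against 14 and 15.3 (1.68 ± 0.20, adjusted p = 0.00397). PHT1;5, known for moving phosphate between source and sink organs, was low, at 3.34 and 2.28 against 0.714 and 0.934 (1.77 ± 0.43, adjusted p = 0.04). PHT1;9 had 41 and 9 reads against 1 and 1.

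The lower ones were 2 carriers of the chloroplast. PHT2;1, of the inner envelope, stood at 106 and 123 CPM against 169 and 162 (-0.54 ± 0.09, adjusted p = 0.0131, edgeR). PHT4;1, of the thylakoid, stood at 68.2 and 67.8 against 93.4 and 86.7 (-0.41 ± 0.09, adjusted p = 0.0337). The mitochondrial PHT3;1 was at 247 and 308 against 268 and 281 and overlapped (0.01 ± 0.12, adjusted p = 0.965). Without compl replicate 1 no transporter was called, and without replicate 2 it was 1, higher.

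Membrane lipid remodelling genes were mostly higher. Of 18 tested genes 14 were called higher and none lower, beside 3.27% of all tested genes called higher. The median log2 fold change of the list was 2.34. Of the called genes, MGD2, MGD3, SQD1, SQD2, NPC4, PLDP2 and GDPD1 are core genes already counted above. The galactolipid synthases of the outer plastid envelope were both higher: MGD3 stood at 97.1 and 53.5 CPM against 1.75 and 2.01 (5.32 ± 0.57, adjusted p = 0.0101, edgeR). MGD2 stood at 98.6 and 49.3 against 3.96 and 4.09 (4.2 ± 0.40, adjusted p = 0.00535). MGD1, the housekeeping enzyme of the inner envelope, changed less, from 126 and 122 to 184 and 163 (0.49 ± 0.09, adjusted p = 0.0151). DGD1, which makes digalactolipids, was at 78.4 and 69.5 against 35.5 and 40.9 (0.96 ± 0.14, adjusted p = 0.008), and DGD2 was not called (0.30 ± 0.12, adjusted p = 0.173).

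The sulfolipid pathway was higher at each of its 3 steps. UGP3, the plastid enzyme that makes UDP-glucose for it, stood at 586 and 375 CPM against 131 and 126 (1.90 ± 0.19, adjusted p = 0.0026, edgeR). SQD1, which makes UDP-sulfoquinovose, stood at 738 and 531 against 126 and 144 (2.24 ± 0.17, adjusted p = 0.00106). SQD2, which transfers the head group, stood at 589 and 332 against 86.1 and 82.1 (2.45 ± 0.30, adjusted p = 0.0131). None of the 3 overlapped between the groups, as for 55.6% of all tested genes in either direction.

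Phospholipid breakdown genes were higher as well. GDPD1, a plastid glycerophosphodiester phosphodiesterase, stood at 461 and 258 CPM against 16.3 and 17.1 (4.43 ± 0.39, adjusted p = 0.00555, edgeR). PLDP2, a phospholipase D, stood at 89.3 and 50.9 against 4.15 and 4.16 (4.08 ± 0.31, adjusted p = 0.00144). NPC4, a phospholipase C, stood at 35.4 and 13.2 against 1.56 and 1.36 (4.05 ± 0.73, adjusted p = 0.0361). GDPD1 and PLDP2 overlap a gene on the opposite strand, and the strand setting of the counts is not given; those neighbours, AT3G02030 and AT3G05640, differed by 0.57 (adjusted p = 0.133) and -0.02 on the log2 scale. Of the 18 lipid genes 4 were called without compl replicate 1, and 4 without replicate 2.

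Phosphatases and nucleases, most of which act on organic phosphorus compounds, had 10 of 16 tested genes called higher, beside 3.27% of all tested genes. None was called lower, and the median log2 fold change was 3.23. Of the 16, 4 had 3 or fewer reads in the compl libraries and passed the low-count filter only through other groups. They could not have been called lower, so the share and the median are no support beside 3.27%. PS2, annotated as an inorganic pyrophosphatase, stood at 273 and 109 CPM against 3.57 and 2.23 (6.03 ± 0.66, adjusted p = 0.0113, edgeR). PECP1, a phosphatase of phosphoethanolamine and phosphocholine, stood at 95.1 and 41.1 against 1.36 and 0.574 (6.10 ± 0.69, adjusted p = 0.0122). The purple acid phosphatases PAP17 and PAP12 stood at 194 and 144 against 19.0 and 25.6, and at 165 and 128 against 32.1 and 34.6.

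Several phosphatases were all but silent in the compl libraries. PAP5 had 422 and 104 reads in the pho14 libraries and 0 and 1 in the compl libraries. PAP24 had 211 and 97 against 1 and 0, PAP25 79 and 36 against 1 and 1, and PAP23 42 and 11 against 1 and 0. The vacuolar and secreted PAP26, the main leaf enzyme of the family, was at 159 and 153 against 159 and 166 CPM and was not called (-0.06 ± 0.08, adjusted p = 0.691, edgeR). Of this list 3 genes were called without compl replicate 1 and 3 without replicate 2.

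Of 5 tested glycerol-3-phosphate permeases and kinases of PEP carboxylase, 3 were called higher, beside 3.27% of all tested genes. G3Pp1 stood at 109 and 77.9 CPM against 9.87 and 7.76 (3.40 ± 0.21, adjusted p = 0.000449, edgeR). The kinase PPCK1 stood at 151 and 86.8 against 46.4 and 37.4 (1.51 ± 0.26), and PPCK2 at 6.29 and 4.06 against 0.26 and 0.359 (4.04 ± 0.43). G3Pp4 and G3Pp5 were not called. PPCK1 lost its call without compl replicate 1 or 2 (adjusted p = 0.136 and 0.154).

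**Figure D4:**
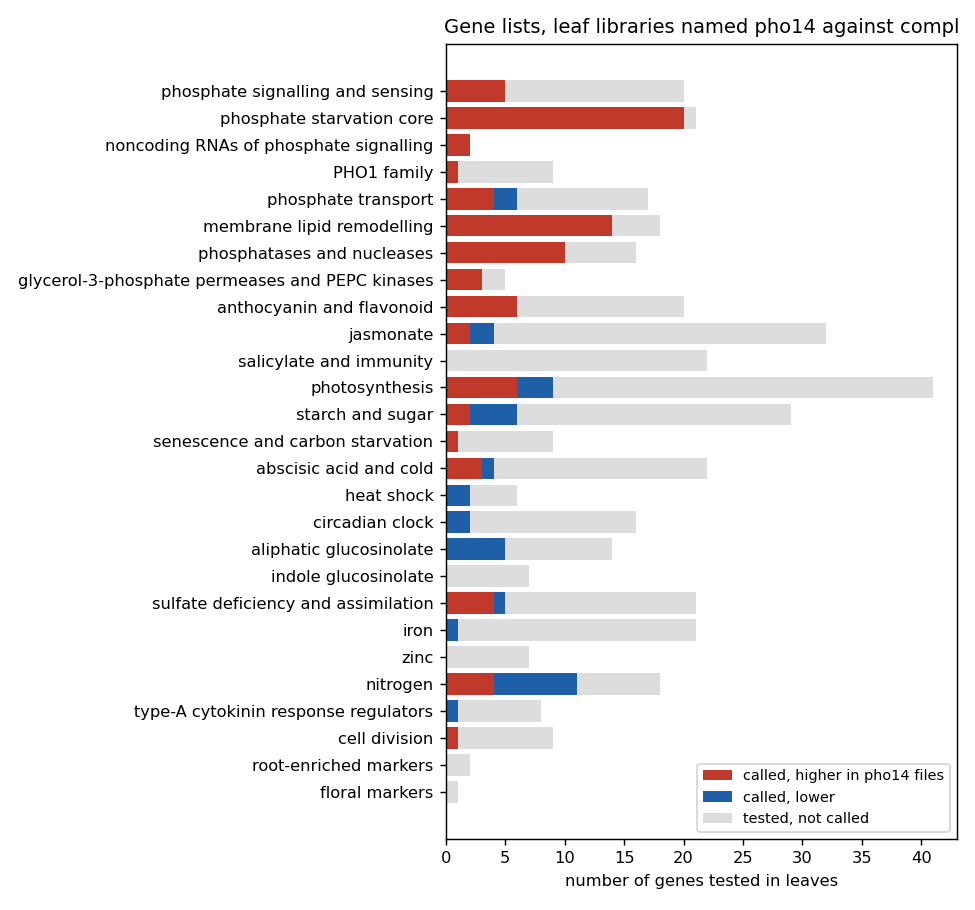
Number of genes tested in leaves in each list (bar length), split into called higher in the pho14 libraries (red), called lower (blue) and not called (grey). The core list has 20 of 21 genes in red, membrane lipid remodelling 14 of 18, and aliphatic glucosinolates 5 of 14 in blue. Every core gene is also counted in another phosphate list. Over all tested genes 3.27% were called higher and 3.14% lower.

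Some of the genes with the largest increases lie in no phosphate list. AT2G45135, a RING/U-box protein, had 262 and 76 reads against 0 and 3; it starts 970 bases after the end of SPX3 on the same strand. AT2G34210, annotated as transcription elongation factor Spt5, stood at 16.4 and 12.4 CPM against 0.325 and 0.0718 (6.07 ± 0.62, adjusted p = 0.00283, edgeR) and starts 823 bases after the MIR399F locus on the same strand. AT1G23110 stood at 79.1 and 37.7 against 0.519 and 0.503 (6.81 ± 0.52, adjusted p = 0.00231). OCT1, an organic cation/carnitine transporter, had 222 and 32 reads against 1 and 2, and AT3G43110, an uncharacterized protein, 178 and 61 against 2 and 1. The calls were lost without compl replicate 1 or 2 for AT2G45135 (adjusted p = 0.0875 and 0.0595) and OCT1 (0.255 and 0.205). Neighbouring transcripts can share reads past a gene's end, and this was not tested.

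The largest decreases were of other kinds. AT1G68600, of the aluminium-activated malate transporter family, stood at 7.17 and 10.6 CPM against 73.0 and 63.9 (-2.96 ± 0.23, adjusted p = 0.00106, edgeR). ORA47, a jasmonate-responsive transcription factor, stood at 2.07 and 3.17 against 19.2 and 15.7 (-2.75 ± 0.30, adjusted p = 0.00231). The fructan exohydrolase cwINV6 stood at 1.59 and 0.692 against 7.34 and 9.34 (-2.81 ± 0.42, adjusted p = 0.00713; 0.0715 without compl replicate 2). The flowering repressor MAF5 fell from 2.99 and 2.44 to 0.398 and 0.0989 (-3.32 ± 0.77, adjusted p = 0.0382), a call lost on leaving out each of the 4 libraries in turn. The files named EXS32 were as low as the pho14 libraries for AT1G68600 (8.04 and 12.2) and ORA47 (0.787 and 0.748), so these levels are not particular to the pho14 libraries.

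Part of the anthocyanin and flavonoid pathway was higher. Of 20 tested genes 6 were called higher and none lower, beside 3.27% of all tested genes called higher. The median log2 fold change was 0.64. TT4, the chalcone synthase that starts the pathway, stood at 72.2 and 98.2 CPM against 29.1 and 29.3 (1.54 ± 0.18, adjusted p = 0.00346, edgeR). DFR, which commits it to anthocyanins, stood at 27.3 and 27.0 against 10.3 and 7.47 (1.61 ± 0.26, adjusted p = 0.0152). Unlike the core genes, they did not follow the order of the 2 pho14 libraries: replicate 1 was the higher for 8 of 20. The files named EXS34 were also high, with TT4 at 81.7 and 103. With all 16 libraries in 1 fit none of the 6 was called, and without compl replicate 1 or 2 it was 2 or 1.

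Nitrogen genes were called in both directions, 4 higher and 7 lower of 18 tested, beside 3.27% and 3.14% of all tested genes. The nitrate transceptor NRT1.1 stood at 29.9 and 37.4 CPM against 97.2 and 74.3 (-1.35 ± 0.15, adjusted p = 0.00245, edgeR), and the plastid glutamine synthetase GS2 at 1462 and 1567 against 2196 and 2136 (-0.52 ± 0.07). Nitrate reductase NIA2 stood at 857 and 626 against 365 and 323 (1.11 ± 0.17, adjusted p = 0.0127). ASN1, an asparagine synthetase induced in darkness and carbon shortage, stood at 93.3 and 73.1 against 21.9 and 15.3 (2.16 ± 0.26, adjusted p = 0.00802). It reached 252 and 265 in the files named EXS32. Without compl replicate 1, as without replicate 2, 1 gene was called in each direction.

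Aliphatic glucosinolate genes, which make methionine-derived defence compounds, were lower or not called. Of 14 tested, 5 were called lower, beside 3.14% of all tested genes. None had a positive log2 fold change, and the median was -0.44. SOT18, the last sulfotransferase of the core pathway, stood at 56.5 and 48.1 CPM against 103 and 86.4 (-0.85 ± 0.13, adjusted p = 0.00772, edgeR). CYP79F1, the entry enzyme, whose near copy CYP79F2 makes its counts uncertain, stood at 257 and 283 against 431 and 375 (-0.58 ± 0.13, adjusted p = 0.0352). In the files named EXS32 CYP79F1 was lower still, at 68.6 and 53.6. The call count depended on single libraries, at 1 and 3 when pho14 replicate 1 or 2 was left out, and 0 and 1 when compl replicate 1 or 2 was.

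Photosynthesis and carbohydrate genes were called in both directions, beside 6.41% of all tested genes. Of 41 photosynthesis genes 6 were called higher and 3 lower, with a median of -0.03. The antenna gene LHCB4.2 stood at 1111 and 1035 CPM against 722 and 746 (0.55 ± 0.08, adjusted p = 0.00723, edgeR), and Rubisco activase RCA at 3762 and 3857 against 5113 and 4978 (-0.41 ± 0.07, adjusted p = 0.014). Of 29 starch and sugar genes 2 were higher and 4 lower. The granule-bound starch synthase GBSS1 stood at 23.1 and 14.2 against 2.99 and 4.31 (2.37 ± 0.39, adjusted p = 0.018), and the triose phosphate translocator TPT at 1060 and 1079 against 1466 and 1435 (-0.44 ± 0.06, adjusted p = 0.00662). Neither list had a called gene without compl replicate 1, nor without compl replicate 2.

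Hormone and stress lists are given beside the 6.41% of all tested genes called. Of 22 abscisic acid and cold genes 4 were called, 3 higher and 1 lower. The lower one was RD22 (log2 fold change -0.52, adjusted p = 0.0361, edgeR). Of 32 jasmonate genes 4 were called, and of 22 salicylate genes none. The 2 called of 16 circadian clock genes and the 2 called of 6 heat shock genes were lower. The cold-regulated COR15A and COR15B stood at 282 and 334 against 92.6 and 96.6 CPM, and at 335 and 328 against 76.2 and 96.0. Both were called in all 12 other settings. These 2 genes lie 7 bases apart on the same strand, and whether they share reads was not tested. They stood between 232 and 463 in the files named EXS32 and EXS34, so the compl libraries were the lowest of the 4 groups. Of 32 jasmonate genes 2 were higher, the storage protein VSP1 and the synthesis enzyme AOC1, and 2 lower, the repressor JAZ7 and the receptor COI1. VSP1 and AOC1 have close paralogues, and COI1 overlaps ISA1 on the opposite strand, which was also called lower (-0.43, adjusted p = 0.022), so these counts are uncertain. VSP1 stood at 414 and 285 against 100.5 and 73.7 (2.01 ± 0.34, adjusted p = 0.0318, edgeR). JAZ7 stood at 6.21 and 5.34 against 18 and 22.5 (-1.81 ± 0.21, adjusted p = 0.00269). The circadian gene GI was at 62.6 and 67.2 against 101 and 101 (-0.64 ± 0.08), and HSP90.1 at 2.95 and 2.18 against 12.9 and 10.6 (-2.18 ± 0.29). Without compl replicate 1 the adjusted p was 0.155 for VSP1, 0.138 for AOC1, 0.0627 for COI1, 0.0501 for GI and 0.0539 for HSP90.1, while JAZ7 stayed at 0.0194; without any 1 of the 4 libraries VSP1 and AOC1 lost the call.

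The other nutrient lists are read against the 6.41% of all tested genes that were called. Iron had 1 called gene of 21, the chloroplast ferric reductase FRO7, at 37.9 and 40.1 CPM against 75.8 and 80.6 (-1.0 ± 0.10, adjusted p = 0.00123, edgeR). Zinc had none of 7. Sulfate had 4 higher and 1 lower of 21; the transporter SULTR1;3 had 35 and 22 reads against 1 and 1, and SULTR3;4 stood at 14.3 and 11.5 CPM against 5.45 and 5.82 (1.2 ± 0.21). Of 8 type-A cytokinin response regulators 1 was called, ARR16, lower at 1.83 and 2.87 against 7.53 and 7.18. The median log2 fold change of those 8 was -0.03. Of 9 cell division genes 1 was called, the cyclin CYCD3;1, higher at 27.2 and 24 against 15 and 15.9, with a list median of 0.23. Without compl replicate 1 FRO7 remained called, and the adjusted p was 0.0581 for SULTR1;3, 0.136 for SULTR3;4 and CYCD3;1 and 0.122 for ARR16. No indole glucosinolate gene was called (adjusted p under 0.05) in the quasi-likelihood fit.

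The same genes were set beside the roots, where KO was compared with Compl. If the leaf files are read by their names this is the same contrast in the other organ; under the labels it is not. In roots 182 of 20597 genes were called (0.884%), 96 (0.466%) higher and 86 (0.418%) lower. Of 17791 genes tested in both organs 1109 were called in leaves and 167 in roots. The 42 called in both are 3.79% of these leaf and 25.1% of these root calls. Of the 42, 37 had the same direction. The difference between the organs, tested as an interaction in all 16 libraries, was called for 344 of 21351 genes (1.61%), 179 (0.838%) with the leaf value higher and 165 (0.773%) lower.

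Most phosphate genes with a called organ difference had the higher value in leaves. In the core list 12 of 21 were called with a higher leaf than root difference, beside 0.838% of all tested genes, and none with a lower one. GDPD1 stood at 117 and 162 CPM in KO roots and 65.2 and 45.2 in Compl roots, a log2 fold change of 1.34 against 4.43 in leaves (difference 3.08 ± 0.42, adjusted p = 0.00695, edgeR). AT4 stood at 584 and 907 against 313 and 365 in roots, 1.14 against 4.60 in leaves (difference 3.45 ± 0.32, adjusted p = 0.000889). PPCK2 was at 17.3 and 18 in KO and 30.2 and 23.3 in Compl roots, -0.61 against 4.04 in leaves (difference 4.66 ± 0.44, adjusted p = 0.000889).

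No organ difference was called for PHO1;H1, which stood at 73.4 and 76.5 against 17.8 and 15.1 CPM in roots, a log2 fold change of 2.19 against 3.16 in leaves (difference 0.95 ± 0.32, adjusted p = 0.175, edgeR). For PHO2 the organ difference came with a lower root value. It was at 100 and 132 in KO and 527 and 745 in Compl roots (-2.45 ± 0.44, adjusted p = 0.0608), against -0.11 in leaves (difference 2.33 ± 0.51, adjusted p = 0.0497). The root call count is sensitive to single libraries, from 0 without KO replicate 2 to 1426 without Compl replicate 2, and the organ count ranges from 40 without leaf compl replicate 2 to 808 without root Compl replicate 2.

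**Figure D5:**
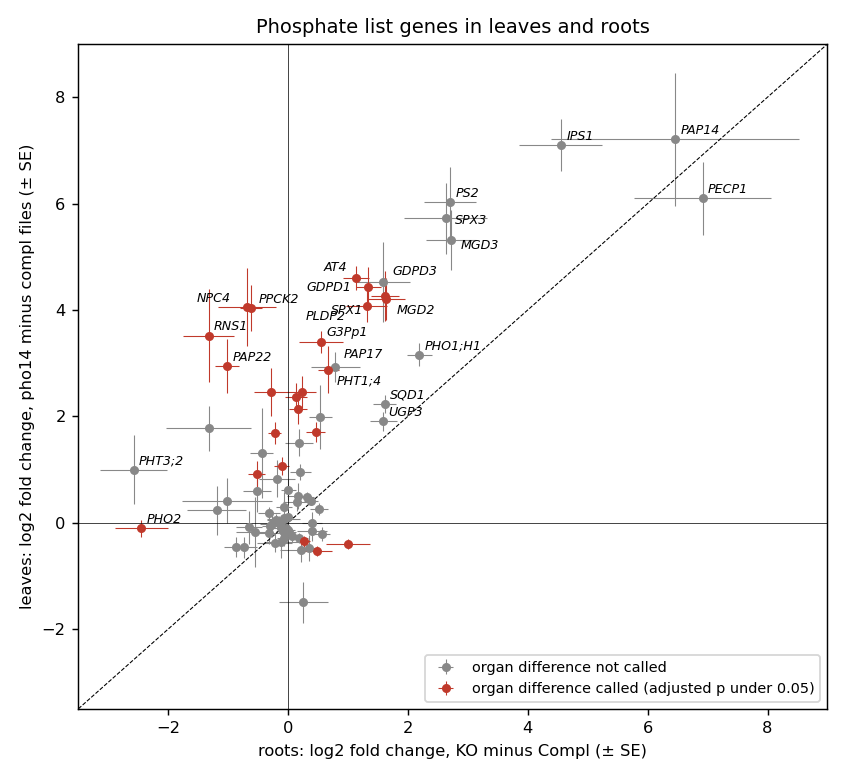
Log2 fold change ± SE in roots (horizontal, KO minus Compl) and leaves (vertical, pho14 minus compl) of the 81 genes of the phosphate lists tested in both organs with more than 3 reads in the compl libraries; the dashed line marks equal values. Genes with a called organ difference, 23 of the 81, are red, and 61 of the 81 lie above the line; PAP14 and PECP1 have 0 and 1 reads in the Compl roots, so their root values depend on the prior count and are no bounds.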

How the data were processed

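Per the labels' protocols, stranded mRNA libraries were prepared from total RNA. The deposited values are raw counts of reads for each gene, in a separate file for every library. Lines that name no gene held 7.26 to 7.77% of leaf and 8.57 to 10.26% of root reads and were left out. The submitters' processing notes list TopHat2 2.0.9, HTSeq 0.5.4p3, cutadapt 1.2.1, limma, edgeR, R 3.1.1 and TAIR10; the sources used here do not give the strand setting or the handling of overlapping genes. One of those lines holds the multiply aligned reads, which lowers the counts of genes that have a near copy.

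Groups follow the labels; since labels and file names pair the leaf libraries alike, the fit is the same under both. The label descriptions number EXS34 replicate 2 as a first sample, and titles were used for replicate numbers. Paired leaf libraries differed beyond counting error (chi-square 4.16 to 11.9 for each degree of freedom), and each was counted as 1 replicate. The 8 leaf libraries entered a single robust quasi-likelihood fit in edgeR 4.0.16 (R 4.3.3) with TMM scaling, after filterByExpr with a minimum count of 10 and total of 15. P-values were adjusted by Benjamini-Hochberg over all tested genes, with a threshold of 0.05 and no block. Standard errors come from the log2 fold change and the F statistic (their quotient, with the root of F). Roots were fitted alike, and the organ difference as an interaction over all 16 libraries. Levels (CPM) are counts scaled by the reads on genes times the TMM factor of each organ's fit. Where a group had 3 or fewer reads of a gene, the reads are given instead of a fold. Such genes passed the low-count filter through other libraries, yet the call counts and medians of the lists include them. Matching used group means of log2 CPM with a pseudocount of 0.5.

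The comparison, the 27 gene lists (479 entries, 458 matched by name and 21 kept by locus alone in the TAIR10.1 gene table) and the tests were chosen with earlier results of these data known. Genes named are PHO1, members of the 8 phosphate lists, up to 4 called members of each other list with the lowest adjusted p, and the 10 largest increases and decreases among called genes that reached a group mean of 2 CPM and whose libraries did not overlap. CYP79F2 is named as background, and ISA1, AT3G02030 and AT3G05640 as overlapping genes. The test was checked 5 times per setting on counts simulated from the real leaf means, library sizes and spreads, with 200 changed genes among 18341 to 18391. It recovered 66.2% of the genes at a 2-fold and 92.6% at a 4-fold change, with 8.56% and 10.3% of calls false, above the nominal 5%. With no gene changed, 0 to 3 were called. Promoters are the 300 bases before the annotated start in the TAIR10.1 assembly.

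Other settings were limma-voom (limma 3.58.1), DESeq2 1.42.0, its size factors in edgeR, library size without TMM, all genes unfiltered, only the 4 libraries, all 16 libraries, a block for the replicate number, and each library left out. For the matching they were other marker ranges and Spearman's rho. Plots were made in matplotlib 3.10.9.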

Additional observations from a re-analysis of the deposited data

Results flagged for a closer look

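For 344 genes the leaf difference (pho14 minus compl) differed from the root difference (KO minus Compl) in edgeR's test of the interaction at an adjusted p under 0.05, and 34 of the genes named by rule were among them. The values below are the leaf minus the root log2 fold change, and their meaning as an organ difference depends on reading the leaf files by name.

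Among signalling and transport genes the difference was 2.63 for SPX1, 1.23 for SPX2, 2.33 for PHO2, 2.21 for AT5G15070, 3.45 for AT4, 1.89 for PHF1, 2.18 for PHT1;4 and 2.84 for G3Pp1. The chloroplast carriers PHT2;1 and PHT4;1 and their relative PHT4;3 had negative differences of -1.05, -1.43 and -0.64. PHT1;9 had 5.54 and PHT1;8 11.3. The compl libraries held 2 reads of PHT1;9 and none of PHT1;8, so both values depend on the prior count and are no bounds.

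Among lipid genes it was 3.08 for GDPD1, 2.73 for GDPD2, 1.42 for GDPD5, 2.56 for MGD2, 2.21 for SQD2, 4.73 for NPC4, 2.75 for PLDP2 and 1.15 for PAH1. Phosphorus-scavenging enzymes had 1.96 for PAP12, 3.95 for PAP22 and 4.83 for RNS1, and the kinase PPCK2 had 4.66. PAP24 had 8.41, OCT1 8.79 and AT3G43110 6.08, each with 3 or fewer reads in the compl libraries, so these depend on the prior count too. Root differences were negative for PAP22 (-1.02), RNS1 (-1.33), NPC4 (-0.69) and PPCK2 (-0.61), none of them called in roots.

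Outside the phosphate lists the difference was -3.08 for cwINV6, -3.89 for ORA47, -2.56 for AT4G14390, -0.93 for COI1, 2.09 for ASN1 and 2.79 for LSU4. Leaving out pho14 replicate 1 ended 26 of the 34 calls, compl replicate 1 ended 27 and compl replicate 2 ended 29; root KO replicate 1 and 2 ended 22 and 24.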

How the results depend on the processing

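The 1189 leaf calls became 1176 with DESeq2 size factors, 1120 with library size alone (56.9% of calls higher, against 51.0%), 1313 with no filter, 965 with DESeq2 and 1176 with limma-voom, but 371 with only the 4 libraries in the fit (59.8% higher) and 714 with all 16 (59.0% higher). Leaving out 1 library gave 143 to 1149. Without a compl library the lone one is assumed to vary like the other groups, and 135 of the 144 genes called without replicate 1 and 139 of the 143 without replicate 2 were among the 1189. Of 94 named genes called in leaves, 22 were called in all 12 other settings. Of these 94, 70 lost the call without a compl and 23 without a pho14 library. None of the 140 tested changed sign where called in the main fit or the other setting. Sign changes of genes called in neither were not counted.

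The titles' replicate numbers are shared by the groups, but there are only 2 and nothing in the labels ties them to a batch or plant. Same-numbered deviations correlated at 0.17 between the pho14 and compl libraries. With the replicate block 1949 leaf genes were called, 104 root genes (against 182 without it) and 389 organ differences (against 344); crossing the root numbers, a setting chosen after a correlation of -0.14 was seen, gave 90.

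DESeq2 called 1234 root genes and 878 organ differences; leaving out 1 library gave 0 to 1426 and 40 to 808. At 0 root calls 2738 genes had an unadjusted p under 0.05. The matching of pho14 leaves to KO roots was 0.42 with a marker range of at least 1 (458 genes), 0.42 with at least 4 (9 genes) and 0.30 with Spearman's rho (89 genes), against 0.52. For pho14 with EXS34 roots it was -0.27 at a range of at least 4. For compl with Compl roots it was 0.55, 0.67 and 0.69, and with KO roots -0.31, -0.35 and -0.29. The values at a range of at least 4 rest on very few genes. Other pairs of groups are not given for these settings. Leaf depth limits genes near 3 reads a group; 2 libraries a group limit all tests.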

Other observations

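Further members of the phosphate lists were higher in the pho14 leaf libraries. PAH1, a phosphatidate phosphatase, stood at 82.8 and 54.9 CPM against 33.5 and 32.5 (log2 fold change 1.06 ± 0.17, adjusted p = 0.0129, edgeR), while its relative PAH2 stood at 55.0 and 49.6 against 49.7 and 49.3 and was not called. The phosphodiesterase GDPD2 stood at 67.1 and 35.4 against 10.6 and 8.11 (2.46 ± 0.44, adjusted p = 0.0368), and GDPD3 had 51 and 27 reads against 0 and 4. The purple acid phosphatase PAP22 stood at 16.8 and 6.53 CPM against 2.08 and 0.934 (2.94 ± 0.51, adjusted p = 0.0186). Without compl replicate 1 none of PAH1, GDPD2, GDPD3 and PAP22 was called.

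PHT1;7 and PHT1;8, uptake carriers below the low-count filter in leaves, had 20 and 6 reads and 18 and 6 reads in the pho14 libraries, against 1 and 0 and against none in the compl libraries.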
